A study of Mus musculus with 8 samples.

Results

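Expression of 52 genes that encode UDP-glucuronosyltransferases, glutathione S-transferases and cytosolic sulfotransferases was measured in colon tumors that arose in WT and in MDR1A KO mice. The genes were chosen by symbol alone: every probe set that the array's annotation gave exactly 1 symbol of the Ugt1a, Ugt2a, Ugt2b, Ugt3a, Gsta, Gstm, Gstp, Gstt, Gsto, Gstk, Gstz, Mgst or Sult families was taken. Each of the 52 genes had 1 such probe set, among 25341 probe sets with a symbol and 41345 in all. There were 10 Ugt genes, 21 Gst and Mgst genes and 21 Sult genes. Another 14 genes of these families, among them all Ugt1a genes and Gstz1, were found only on probe sets that carry several symbols and were not counted.

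The tumors came from 4 WT and 4 MDR1A KO mice, 1 tumor and 1 GeneChip Mouse Gene 2.0 ST array per mouse. All mice were male, on the FVB/N strain and 6 weeks old at the start, and all received azoxymethane (AOM) once at 10 mg/kg followed by 2.5% dextran sulfate sodium (DSS) in drinking water for 7 days from day 0, 21 and 42. Tumors recorded as adenomas were taken at day 84. AOM is a methylating carcinogen and DSS an agent that injures the colonic epithelium, so every tumor of both genotypes arose in repeatedly inflamed colon, and untreated colon was not analysed here. The MDR1A KO mice lack a functional Abcb1a gene in the whole animal, in tumor cells and in the surrounding cells alike, and Abcb1b, the other P-glycoprotein gene of the mouse, is intact. RNA was extracted from whole tumor tissue with either of 2 kits, and the sources used here do not say which tumor went through which kit. Values are the log2 signals deposited by the authors, and a log2 fold change is the mean of MDR1A KO minus the mean of WT tumors.

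These enzymes carry out the conjugation step of detoxification. UDP-glucuronosyltransferases sit in the membrane of the endoplasmic reticulum and attach glucuronic acid from UDP-glucuronate to bilirubin, steroids, bile acids and drugs. Glutathione S-transferases couple glutathione to electrophiles, including products of lipid peroxidation, and sulfotransferases move a sulfate group from the donor PAPS to phenols, steroids and bile acids. The conjugates leave the cell through export pumps of the ABC family. Differentiated colonic epithelium is a known site of glucuronidation and sulfation, and P-glycoprotein, the product lost here, is an efflux pump at the same epithelial surface.

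Abcb1a itself had a log2 value of 6.38 ± 0.35 (SD, n = 4) in MDR1A KO and 9.04 ± 0.32 (SD, n = 4) in WT tumors, with no overlap. Median signals of the 8 arrays lay between 5.62 and 5.67. Epithelial markers (such as Epcam and Krt8) were lower in mean in 7 of 8 genes, 0 of them at an unadjusted p under 0.05. None was dim. Their list levels were 10.97 to 11.02 in MDR1A KO and 11.06 to 11.20 in WT tumors, with no overlap. Macrophage markers were higher in mean in 8 of 8 genes, 5 of them at an unadjusted p under 0.05, with list levels of 8.78 to 8.91 in MDR1A KO and 8.22 to 8.81 in WT tumors. Differentiated colonocyte markers were lower in mean in 9 of 10 genes, 3 of them at an unadjusted p under 0.05, with list levels of 8.60 to 9.88 in MDR1A KO and 8.63 to 9.96 in WT tumors. Smooth muscle markers were higher in mean in 8 of 8 genes, 0 of them at an unadjusted p under 0.05, with list levels of 10.01 to 10.43 in MDR1A KO and 8.38 to 10.71 in WT tumors. B and plasma cell markers were higher in mean in 5 of 7 genes, 2 of them at an unadjusted p under 0.05. Their list levels were 7.14 to 8.28 in MDR1A KO and 6.32 to 8.52 in WT tumors. T cell markers were higher in mean in 4 of 5 genes, 1 of them at an unadjusted p under 0.05. Mast cell markers were higher in mean in 7 of 7 genes, 0 of them at an unadjusted p under 0.05. Their list levels were 8.39 to 8.74 in MDR1A KO and 6.98 to 9.27 in WT tumors. Over all named probe sets 3.66% were higher and 2.74% lower by this rule. The part of any of these cells in the differences below was not tested. In such bulk samples, fewer cells of a type and less RNA per cell cannot be told apart.

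As a group, the transferases differed little between the genotypes. Of the 52 genes, 26 had a higher and 26 a lower mean in MDR1A KO tumors, and the median log2 fold change was 0.0054, against 0.00098 over all named probe sets. The single differences ran from -0.56 (Gsta3) to 0.26 (Gstt1). In limma's moderated test, 0 of 52 genes were higher and 3 were lower at an unadjusted p under 0.05 (Sult2a8, Gsta3 and Ugt2b34), which is 5.77% of the members. Over all named probe sets 3.66% were higher and 2.74% were lower by the same rule, together 6.40%. The members' count is close to the background over both directions together, with all 3 genes on the lower side. With Benjamini-Hochberg adjustment over the 25341 probe sets, 0 members passed an adjusted p under 0.05 and the lowest adjusted p among them was 0.738, against a background of 0.0158%. The methods' criterion, an unadjusted p under 0.05 with at least a 2-fold change, was met by 0 members and by 0.241% of all named probe sets. All MDR1A KO tumors lay above all WT tumors for 0 members and for 2.13% of all named probe sets, and below them for 2 members and for 1.59%.

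The intervals show what size of change these 8 tumors leave room for. For 48 of the 52 genes the 95% confidence interval of the difference stayed within 2-fold in either direction, and for Gsta3, Ugt2b35, Sult1c2 and Sult1d1 it reached further. The signal itself divided the members: 26 of the 52 were among the dimmest 33.3% of named probe sets, where the array can follow little change. These were 8 of 10 Ugt genes, 16 of 21 Sult genes and 2 of 21 Gst and Mgst genes. All 26 dim members were among the 48, and their intervals set little limit on a real change. For 22 of the 26 brighter members the interval stayed within 2-fold. Among the 26 brighter members 2 were lower and 0 higher at an unadjusted p under 0.05, together 7.69%, with a median log2 fold change of -0.087. Of the 16894 named probe sets above the dim range, 407 were lower and 787 higher, together 7.07%, with a median of 0.013. Over both directions together, the count of the brighter members is thus close to that background. By direction it differs, since both members were lower while more of the background was higher. Of the 26 brighter members, 15 had a lower and 11 a higher mean.

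**Figure D1:**
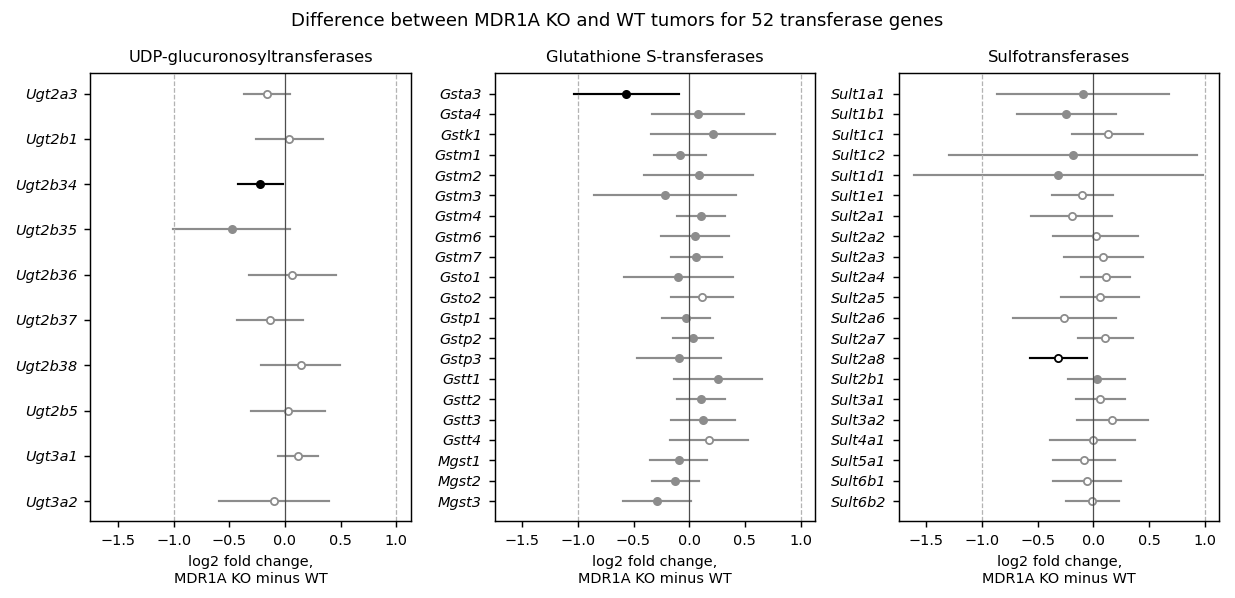
Log2 fold change (MDR1A KO minus WT, horizontal axis) of each of the 52 genes with its 95% confidence interval, 4 tumors per genotype, in 3 panels for the Ugt, Gst with Mgst, and Sult genes. Black marks an unadjusted p under 0.05 (Gsta3, Ugt2b34, Sult2a8), open circles mark genes among the dimmest 33.3% of named probe sets, and dashed lines mark a 2-fold change. The points scatter on both sides of 0 between -0.56 and 0.26.

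Promoter sequences are shown for 4 members: Gsta3 and Ugt2b34, the brighter members that were lower at an unadjusted p under 0.05, and Sult1d1 and Sult1c2, whose values varied most from tumor to tumor. They were taken from RefSeq on GRCm38.p6, 250 bases before to 50 bases after the annotated start, and 45 of the 52 members had an entry, with 56 promoters. Capitals mark matches on either strand to the antioxidant response element bound by NRF2 (letters TGACNNNGC), the core of the xenobiotic response element bound by the aryl hydrocarbon receptor (GCGTG), the core of the element bound by HNF1 (GTTAAT) and a CDX2 site (TTTATG). No motif contains another.
Gsta3, chr1:21240335-21240634, plus strand: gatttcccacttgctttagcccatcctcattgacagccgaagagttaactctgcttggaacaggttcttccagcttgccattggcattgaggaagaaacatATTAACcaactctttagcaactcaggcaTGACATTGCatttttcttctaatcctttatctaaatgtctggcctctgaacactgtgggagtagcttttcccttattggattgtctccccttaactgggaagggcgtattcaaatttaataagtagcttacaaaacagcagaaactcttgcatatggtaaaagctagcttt
Ugt2b34, chr5:86906888-86907187, minus strand: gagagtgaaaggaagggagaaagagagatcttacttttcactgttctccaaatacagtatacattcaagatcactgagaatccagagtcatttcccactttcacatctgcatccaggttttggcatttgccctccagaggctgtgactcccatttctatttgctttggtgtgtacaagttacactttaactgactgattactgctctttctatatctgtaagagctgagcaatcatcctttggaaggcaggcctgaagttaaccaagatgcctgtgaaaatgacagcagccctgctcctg
Sult1d1, chr5:87568957-87569256, minus strand: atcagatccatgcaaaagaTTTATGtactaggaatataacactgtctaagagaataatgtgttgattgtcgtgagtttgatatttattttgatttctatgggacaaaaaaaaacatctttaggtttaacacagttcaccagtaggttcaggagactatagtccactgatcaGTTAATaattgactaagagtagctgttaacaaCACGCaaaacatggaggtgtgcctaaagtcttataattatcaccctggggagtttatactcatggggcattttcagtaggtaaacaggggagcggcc
Sult1c2, chr17:53845909-53846208, minus strand: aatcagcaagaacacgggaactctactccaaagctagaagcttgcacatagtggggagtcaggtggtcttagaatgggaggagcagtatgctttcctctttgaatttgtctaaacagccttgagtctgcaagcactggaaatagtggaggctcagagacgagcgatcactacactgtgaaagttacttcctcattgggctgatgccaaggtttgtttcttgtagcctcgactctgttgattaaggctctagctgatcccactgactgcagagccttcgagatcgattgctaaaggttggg

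In the Gsta3 promoter the antioxidant response element lay at -121 and the HNF1 core at -149 from the start. In the Sult1d1 promoter the xenobiotic core lay at -47, the HNF1 core at -79 and the CDX2 site at -231. The promoters of Ugt2b34 and Sult1c2 held none of the 4 motifs in this window. Among all RefSeq promoters of the table, 12.4% held the antioxidant response element, 32.4% the xenobiotic core, 7.10% the HNF1 core and 11.9% the CDX2 site. Among the 56 member promoters the antioxidant response element was found in 3 (Gsta3, Gstm7 and Mgst1), the xenobiotic core in 9, the HNF1 core in 10 and the CDX2 site in 4. The 4 motifs were chosen from a longer search with the matches in view, so these counts are no test of an excess over the shares. A match is a stretch of letters and does not show that a factor binds there.

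Among the UDP-glucuronosyltransferases, 5 of 10 had a higher and 5 a lower mean in MDR1A KO tumors, 1 was lower at an unadjusted p under 0.05, and the median log2 fold change was -0.04. The 8 Ugt2 genes measured lie side by side on chromosome 5, the chromosome that also carries Abcb1a. Ugt2b34, an enzyme of the group that conjugates steroids and drugs, had a signal far above the dim range. Its WT values were 10.95, 10.77, 10.85 and 10.79, and its MDR1A KO values were 10.46, 10.59, 10.69 and 10.73. Every MDR1A KO tumor was below every WT tumor, by a margin that was narrow between WT replicate 2 and MDR1A KO replicate 4. The means were 10.84 ± 0.08 (SD, n = 4) in WT and 10.62 ± 0.12 (SD, n = 4) in MDR1A KO tumors. The difference on the log2 scale was -0.22 (standard error 0.09, unadjusted p = 0.034 and adjusted p = 0.756 from limma), or 1.17-fold lower, with an exact permutation p of 0.029, the smallest that 4 tumors against 4 allow. The unadjusted p rose above 0.05 without MDR1A KO replicate 1 (log2 fold change -0.17, adjusted p = 0.997 in limma), without MDR1A KO replicate 2 (-0.21, adjusted p = 0.961), without WT replicate 1 (-0.18, adjusted p = 0.848) and without WT replicate 3 (-0.22, adjusted p = 0.588).

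Ugt2b35, its near neighbour in the same gene cluster, showed a larger but more scattered difference. WT tumors had values of 6.77, 6.10, 5.57 and 6.24, and MDR1A KO tumors had values of 5.56, 5.64, 6.07 and 5.51. WT replicate 3 was as low as most MDR1A KO tumors and MDR1A KO replicate 3 was within the WT range, so the genotypes overlapped. On the log2 scale the difference was -0.48 (standard error 0.23, unadjusted p = 0.070, adjusted p = 0.793 from limma), with a 95% interval of -1.002 to 0.048. Without WT replicate 3 it was -0.68 (unadjusted p = 0.0073, adjusted p = 0.356 in limma), and without MDR1A KO replicate 3 it was -0.60 (unadjusted p = 0.037, adjusted p = 0.893). Without WT replicate 1, the highest tumor, it was -0.28 with an unadjusted p above 0.05. With array weights it was -0.54 (unadjusted p = 0.036, adjusted p = 0.674 in limma).

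The other Ugt genes were dim, with mean log2 values between 1.97 and 4.24 in both genotypes. Ugt3a1, which in humans uses UDP-N-acetylglucosamine as its sugar donor, had one of the most even signals of all members. Its values ran from 3.57 to 3.81 in WT and from 3.79 to 3.84 in MDR1A KO tumors, a difference on the log2 scale of 0.12 (standard error 0.08, adjusted p = 0.843 from limma, exact permutation p = 0.114). Ugt3a2 differed by -0.10 (standard error 0.22). The remaining log2 fold changes were -0.16 for Ugt2a3, -0.14 for Ugt2b37, 0.03 for Ugt2b5, 0.04 for Ugt2b1, 0.07 for Ugt2b36 and 0.14 for Ugt2b38. Both Ugt1a probe sets, which carry 8 and 5 symbols of the family that conjugates bilirubin and phenols, had log2 fold changes of -0.11 (standard error 0.16) and -0.19 (standard error 0.09, adjusted p = 0.798 from limma, exact permutation p = 0.057). These probe sets are not members and are given outside the rule for genes with full statistics. Their values ran from 5.004 to 5.76 over all tumors and overlapped between the genotypes.

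Of the 21 glutathione S-transferases, 19 had signals above the dim range. Their means were higher in 12 and lower in 9 genes, 0 were higher and 1 was lower at an unadjusted p under 0.05, and the median log2 fold change was 0.05. Gsta3, an alpha class enzyme that in mice conjugates the epoxide of aflatoxin, was that gene and had the largest difference among all members. The WT values were 6.39, 6.13, 5.57 and 5.46, and the MDR1A KO values were 5.37, 5.54, 5.07 and 5.31. WT replicates 1 and 2 stood above all other tumors, while WT replicate 4 was below MDR1A KO replicate 2. With means of 5.89 ± 0.45 (SD, n = 4) in WT and 5.32 ± 0.20 (SD, n = 4) in MDR1A KO tumors, the log2 fold change was -0.56 (standard error 0.21, unadjusted p = 0.023, adjusted p = 0.738 from limma), or 1.48-fold lower. The exact permutation test gave p = 0.057. In limma the unadjusted p rose above 0.05 without WT replicate 1 (log2 fold change -0.39, adjusted p = 0.833), without WT replicate 2 (-0.48, adjusted p = 0.717) and without MDR1A KO replicate 3 (-0.48, adjusted p = 0.893), and the unadjusted p of the methods' t-test on all 8 tumors was also above 0.05 (adjusted p = 0.811).

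Gsta4, the alpha class enzyme specialised for 4-hydroxynonenal and related products of lipid peroxidation, had values of 10.58 to 11.15 in WT and 10.52 to 11.33 in MDR1A KO tumors. Its log2 fold change of 0.08 (standard error 0.18, 95% interval -0.34 to 0.50) was within the spread between tumors. Other alpha class genes lie on 3 probe sets that name several of them together, and these were looked up after their values were seen. One of the 3 had WT values of 8.10, 8.58, 8.47 and 6.65 and MDR1A KO values of 7.01, 6.62, 6.71 and 7.22. WT replicates 1 to 3 were above all MDR1A KO tumors and WT replicate 4 was among them. The log2 fold change was -1.06 (standard error 0.38, unadjusted p = 0.021, adjusted p = 0.738 from limma), 2.09-fold lower, with an exact permutation p of 0.114. Without WT replicate 4 it was -1.50, and the unadjusted p rose above 0.05 without WT replicate 2, WT replicate 3 or MDR1A KO replicate 2. The other two had log2 fold changes of -0.47 (unadjusted p = 0.041, adjusted p = 0.764 from limma, with the unadjusted p under 0.05 kept without WT replicate 4 or MDR1A KO replicate 3 and lost without any of the other 6) and -0.17 (adjusted p = 0.852).

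**Figure D2:**
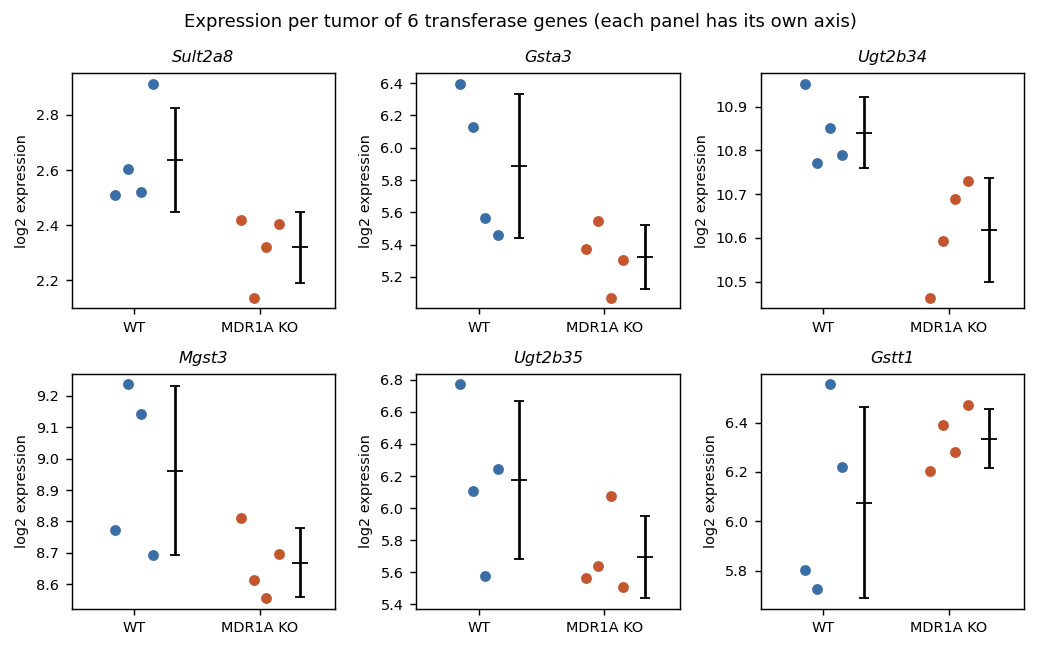
Log2 expression (vertical axis, its own scale in each panel) of 6 members in each of the 4 WT (blue) and 4 MDR1A KO (orange) tumors, with the mean and SD of each genotype in black. Sult2a8 and Ugt2b34 do not overlap between genotypes, Gsta3, Mgst3 and Ugt2b35 are lower in mean in MDR1A KO tumors with overlap, and Gstt1 is higher in mean with overlap.

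None of the genes of the mu, pi and omega classes had an unadjusted p under 0.05. Of 6 Gstm genes 4 had a higher and 2 a lower mean, and their log2 fold changes lay between -0.22 (Gstm3) and 0.10 (Gstm4, standard error 0.10). Gstm1, a broad conjugating enzyme of the mu class, differed by -0.08 (standard error 0.10), Gstm2 by 0.08, Gstm6 by 0.05 and Gstm7 by 0.06. Gstp1 and Gstp2, pi class genes far above the dim range, had log2 fold changes of -0.03 and 0.03, and Gstp2 varied little between tumors, with values of 9.69 to 9.84 in WT and 9.71 to 9.87 in MDR1A KO tumors. Both genes are close copies of each other, and a probe set that names them together had a log2 fold change of -0.06, so the array cannot fully separate them. Gstp3 differed by -0.09 (standard error 0.17). Gsto1, which has thioltransferase and dehydroascorbate reductase activity, had values of 9.81 to 10.06 in WT tumors and of 9.65, 10.57, 9.45 and 9.71 in MDR1A KO tumors. MDR1A KO replicate 2 was the highest of all 8 tumors and the other MDR1A KO tumors were the 3 lowest. Gsto1 differed by -0.10 (standard error 0.22), and by -0.34 (unadjusted p = 0.014, adjusted p = 0.895 in limma) without MDR1A KO replicate 2, whereas without MDR1A KO replicate 3 the sign turned, to 0.036. Gsto2 differed by 0.12 (standard error 0.12).

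In MDR1A KO tumors all 4 theta class genes had higher means, 0 of 4 of them at an unadjusted p under 0.05. Gstt1, which acts on small halogenated compounds, had the largest positive difference among the members. It had WT values of 5.80, 5.73, 6.55 and 6.22 and MDR1A KO values of 6.20, 6.39, 6.28 and 6.47. WT replicates 1 and 2 were below every MDR1A KO tumor, whereas WT replicate 3 was the highest of all. The log2 fold change was 0.26 (standard error 0.18, 95% interval -0.14 to 0.65, unadjusted p = 0.173, adjusted p = 0.852 from limma), and without WT replicate 3 it was 0.42 (unadjusted p = 0.014, adjusted p = 0.420). Without WT replicate 2 it was 0.14 and without WT replicate 1 it was 0.17, both with an unadjusted p above 0.05. Gstt4, which was dim, differed by 0.18 (standard error 0.16), Gstt2 by 0.11 and Gstt3 by 0.12, which was -0.0016 without WT replicate 1. Gstk1, the kappa class enzyme of mitochondria and peroxisomes, differed by 0.21 (standard error 0.25).

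All 3 Mgst genes, which encode the membrane-bound transferases of the endoplasmic reticulum, had lower means in MDR1A KO tumors, again with 0 at an unadjusted p under 0.05. Mgst3, an enzyme with glutathione transferase and peroxidase activity, had WT values of 8.77, 9.24, 9.14 and 8.69 and MDR1A KO values of 8.81, 8.61, 8.56 and 8.70. WT replicates 2 and 3 were the high ones, and WT replicates 1 and 4 lay among the MDR1A KO tumors. The log2 fold change was -0.29 (standard error 0.13, unadjusted p = 0.058, adjusted p = 0.786 from limma, exact permutation p = 0.143). It came to -0.38 (unadjusted p = 0.017, adjusted p = 0.694 in limma) without WT replicate 4 and to -0.35 (unadjusted p = 0.037, adjusted p = 0.807) without WT replicate 1, but to -0.20 without WT replicate 2. The unadjusted p was also under 0.05 with arrays centred on their median, quantile-normalized again or fitted with a trended and robust variance model. Mgst2, which can form leukotriene C4, differed by -0.13 (standard error 0.09, 95% interval -0.34 to 0.08), and Mgst1 differed by -0.09.

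Of the 21 sulfotransferases, 9 had higher and 12 lower means in MDR1A KO tumors, 1 was lower at an unadjusted p under 0.05, and the median log2 fold change was -0.01. That gene was Sult2a8, a hydroxysteroid sulfotransferase that in mouse liver sulfates bile acids. Its WT values were 2.51, 2.60, 2.52 and 2.91, and its MDR1A KO values were 2.42, 2.14, 2.32 and 2.40. The MDR1A KO tumors were all below the WT tumors, but the signal was so low that 3.47% of named probe sets had a lower mean. Sult2a8 differed by -0.32 on the log2 scale (standard error 0.11, unadjusted p = 0.021, adjusted p = 0.738 from limma, exact permutation p = 0.029) and was -0.26 (adjusted p = 0.961, unadjusted p above 0.05) without MDR1A KO replicate 2. Sult2a6, also dim, differed by -0.26 (standard error 0.21) and by -0.44 (unadjusted p = 0.032, adjusted p = 0.960 in limma) without MDR1A KO replicate 2, but by -0.12 without WT replicate 2 and by -0.17 without MDR1A KO replicate 1. The other Sult2a genes lie next to both on chromosome 7 and are close copies, and their log2 fold changes lay between -0.20 (Sult2a1) and 0.11 (Sult2a4 and Sult2a7), with 0.02 for Sult2a2, 0.06 for Sult2a5 and 0.09 for Sult2a3. Sult2b1, which sulfates cholesterol and pregnenolone and was the Sult2 gene above the dim range, differed by 0.03 (95% interval -0.23 to 0.29).

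Sult1d1, Sult1c2 and Sult1a1 were the 3 members that varied most between tumors of the same genotype. Sult1d1, which in mice sulfates catecholamines and other phenols, had values of 5.89, 6.88, 8.58 and 7.26 in WT and of 7.16, 5.61, 6.85 and 7.73 in MDR1A KO tumors. The highest tumor was WT replicate 3 and the lowest MDR1A KO replicate 2, with a distance of 2.97 on the log2 scale. Its SD within genotype of 1.01 was larger than that of 99.4% of named probe sets. Sult1c2, a phenol sulfotransferase, had values of 5.23, 5.64, 7.44 and 6.64 in WT and of 5.98, 5.25, 6.03 and 6.95 in MDR1A KO tumors. Here too WT replicate 3 was highest, and WT replicate 1 and MDR1A KO replicate 2 were lowest. Its SD within genotype was 0.86. Sult1a1, the main phenol sulfotransferase, had values of 7.37, 6.37, 8.22 and 7.37 in WT and of 7.11, 6.94, 7.14 and 7.77 in MDR1A KO tumors, again with WT replicate 3 on top and an SD within genotype of 0.59.

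Against that spread the differences between genotypes were small. The log2 fold change was -0.32 for Sult1d1 (standard error 0.58, 95% interval -1.62 to 0.98), -0.19 for Sult1c2 (standard error 0.49, 95% interval -1.30 to 0.93) and -0.09 for Sult1a1 (standard error 0.34, 95% interval -0.87 to 0.68). A 2-fold decrease lay inside the intervals of Sult1d1 and Sult1c2, and a 2-fold increase just outside them. The sign rested on single tumors: without WT replicate 3 the log2 fold changes were 0.16 for Sult1d1, 0.22 for Sult1c2 and 0.20 for Sult1a1, and without MDR1A KO replicate 2 they were 0.093, 0.083 and 0.0071. Without WT replicate 1 they were -0.74 for Sult1d1 and -0.52 for Sult1c2, and without WT replicate 2 the value for Sult1a1 was -0.41. Sult1b1, which sulfates thyroid hormone and phenols, had values of 7.18 to 7.94 in WT and 6.95 to 7.60 in MDR1A KO tumors, and differed by -0.24 on the log2 scale (standard error 0.20). Sult1c1 differed by 0.13 (standard error 0.14) and by 0.26 (unadjusted p = 0.030, adjusted p = 0.494 in limma) without WT replicate 3, but by 0.054 without WT replicate 2 and by 0.067 without WT replicate 4. Sult1e1, the estrogen sulfotransferase, differed by -0.10. In all, 5 of 6 Sult1 genes had lower means over the 8 tumors, which for Sult1d1, Sult1c2 and Sult1a1 turned without WT replicate 3 or MDR1A KO replicate 2 and for Sult1e1 without MDR1A KO replicate 3, and 0 of 6 had an unadjusted p under 0.05.

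Sult1d1, Sult1c2 and, by a narrow margin, Sult1a1 were highest in the same tumors as lists of markers of differentiated epithelium. Sult1b1, Sult1c1 and Sult1e1 did not share this order of tumors. The differentiated colonocyte list (10 genes such as Car4, Slc26a3 and Krt20) had mean log2 values of 8.63, 9.11, 9.96 and 9.86 in WT and of 8.67, 8.60, 8.82 and 9.88 in MDR1A KO tumors. The goblet cell list (8 genes such as Muc2 and Zg16) had mean log2 values of 9.59, 9.82, 10.98 and 11.17 in WT and of 9.91, 9.16, 10.51 and 11.03 in MDR1A KO tumors. WT replicates 3 and 4 and MDR1A KO replicate 4 were the 3 highest tumors in both lists, and they were the 3 highest for Sult1d1 and Sult1c2 as well. They were also the 3 highest for Sult1a1, with WT replicate 4 at 7.371 and WT replicate 1 at 7.368. Single markers could differ from this order. Krt20 was highest in WT replicate 2 (11.45), and its value in MDR1A KO replicate 4 (11.10) was below every WT tumor. Gstm3, a mu class gene named here after its values were seen, had the same 3 tumors at 6.73, 6.44 and 6.64 and the other 5 tumors between 5.66 and 5.77. Gstk1, Gstm1 and the dim Sult4a1, looked up in the same way, also had these 3 tumors highest, by narrower margins. So did the small intestinal enterocyte list, at 5.69, 5.85 and 5.62, with 3 of its 8 genes dim. How many of all named probe sets share this order was not computed. No marker of the colonocyte and goblet cell lists was dim. The part of these cells in the spread of the transferases was not tested.

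**Figure D3:**
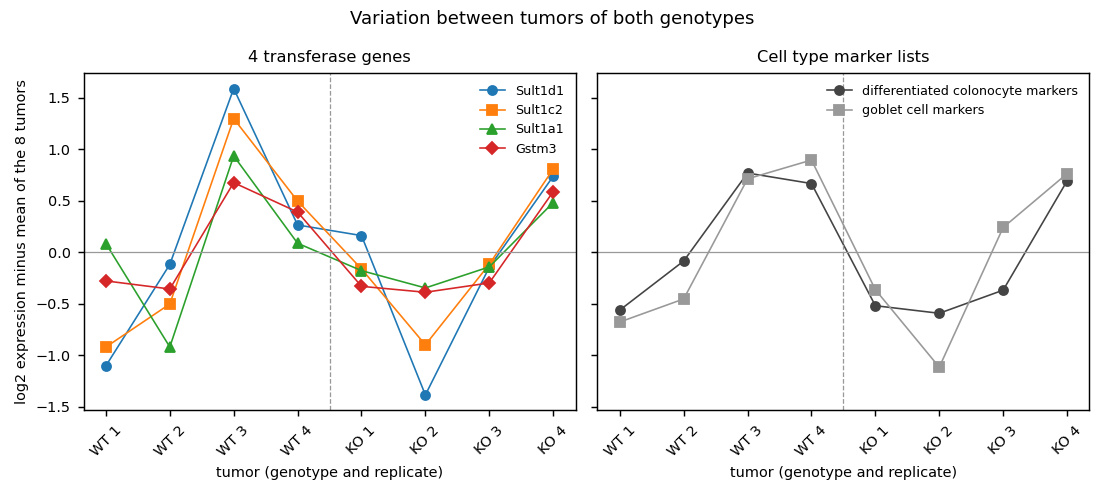
Log2 expression minus the mean of the 8 tumors (vertical axis) in each WT and MDR1A KO tumor (horizontal axis, genotype and replicate number, with no order among replicates) for 4 transferase genes on the left and for the mean of 2 marker lists on the right. WT replicate 3 and MDR1A KO replicate 4 are above 0 in all 6 lines, and MDR1A KO replicate 2 is below 0 in all 6.

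The remaining sulfotransferases, of the Sult3 to Sult6 families, were all dim. Their log2 fold changes lay between -0.08 (Sult5a1, standard error 0.12) and 0.17 (Sult3a2, standard error 0.14). Sult4a1, a gene known from brain, differed by -0.01, Sult3a1 by 0.06, Sult6b1 by -0.06 and Sult6b2 by -0.01. None of these 6 had an unadjusted p under 0.05.

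Genes that supply, regulate or follow the conjugation step were described from 8 lists with 115 measured genes. At an unadjusted p under 0.05, 5 were higher and 5 were lower in MDR1A KO tumors, 0 passed an adjusted p under 0.05, and 1 met the 2-fold criterion. These 10 genes were 8.70% of the 115, beside 6.40% of all named probe sets at an unadjusted p under 0.05 (3.66% higher and 2.74% lower), so their count is near the background. Of these 10 genes, 5 belong to the 20 measured genes of glutathione synthesis and turnover, of which 14 had lower and 6 higher means, with a median log2 fold change of -0.09. Slc7a11, the cystine carrier that feeds glutathione synthesis, had WT values of 9.57, 7.59, 8.35 and 8.39 and MDR1A KO values of 7.39, 7.77, 7.55 and 7.01. WT replicate 1 stood far above the rest and WT replicate 2 lay within the MDR1A KO range. The difference came to -1.04 on the log2 scale (standard error 0.36, unadjusted p = 0.017, adjusted p = 0.730 from limma) and was -0.68 without WT replicate 1. Slc7a11 kept an unadjusted p under 0.05 in all 8 fits that left out 1 tumor (highest 0.04996 in limma). Gss, glutathione synthetase, differed by -0.33 (standard error 0.13, unadjusted p = 0.028, adjusted p = 0.756 from limma), which was lost without WT replicate 1 or 2 or MDR1A KO replicate 3 or 4. Gclm, the modifier subunit of the rate-limiting enzyme of glutathione synthesis, was named after its values were seen and differed by -0.23 (standard error 0.09, unadjusted p = 0.034, adjusted p = 0.756 from limma), which was lost without WT replicate 1 or 2 or MDR1A KO replicate 1 or 2. Gclc, of the same list and also named after its values were seen, did not overlap between genotypes, by a narrow margin. Its values were 8.65 to 8.87 in MDR1A KO and 8.88 to 9.79 in WT tumors. The log2 fold change was -0.37 (standard error 0.19, unadjusted p = 0.074, adjusted p = 0.793 from limma, exact permutation p = 0.029). Oplah, which recycles 5-oxoproline to glutamate, was higher by 0.28 (standard error 0.09, unadjusted p = 0.011, adjusted p = 0.686 from limma) with no overlap between genotypes, and kept an unadjusted p under 0.05 in all 8 fits that left out 1 tumor. Chac2, which degrades glutathione, was higher by 0.35 (standard error 0.14, unadjusted p = 0.031, adjusted p = 0.756 from limma), and lost this in 4 of the 8 fits, without WT replicate 3 or 4 or MDR1A KO replicate 1 or 4.

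In the other lists few genes stood out. Of 7 genes listed for UDP-glucuronate supply and hydrolysis, Slc35d1, the carrier of UDP-glucuronate into the endoplasmic reticulum, was lower by a log2 difference of -0.31 (unadjusted p = 0.047, adjusted p = 0.780 from limma, with the unadjusted p under 0.05 kept without WT replicate 3 or MDR1A KO replicate 4 and lost without any of the other 6 tumors). The list median was -0.12, over a list that also holds genes outside this supply, such as Gusb and Ugcg. PAPS supply and sulfate handling had 6 higher and 6 lower means among 12 genes, 0 at an unadjusted p under 0.05 and a median of 0.01. The list of export pumps of conjugates had 5 higher and 5 lower means among 10 genes. It also holds anion carriers of the Slco family, which are not ABC pumps. Slco3a1, such a carrier, was higher by 0.33 (standard error 0.12, unadjusted p = 0.020, adjusted p = 0.738 from limma), which was lost without WT replicate 4 or MDR1A KO replicate 3. No ABC pump of the list had an unadjusted p under 0.05. Among 18 xenobiotic sensors and regulators 12 means were lower and 6 higher, and Cdx2, a transcription factor of intestinal epithelium, was lower by a log2 difference of -0.65 (standard error 0.25, unadjusted p = 0.031, adjusted p = 0.756 from limma). Its WT values were 7.67, 7.76, 7.85 and 8.29, its MDR1A KO values were 6.70, 7.16, 7.11 and 8.003, and its p rose above 0.05 in 4 of 8 fits, without WT replicate 4 or MDR1A KO replicate 1, 2 or 3. Inmt, a methyltransferase of indoles, was higher by 0.53 (standard error 0.20) and Gpx3, a secreted glutathione peroxidase, by 0.43 (standard error 0.16), each with an unadjusted p = 0.026 and an adjusted p = 0.740 in limma. The first was lost without WT replicate 1 or 2 or MDR1A KO replicate 4, and the second without WT replicate 2 or 4 or MDR1A KO replicate 1 or 4. The heparan and carbohydrate sulfotransferases, which use the same sulfate donor in the Golgi, had 13 higher and 6 lower means among 19 genes, 0 at an unadjusted p under 0.05 and a median of 0.08. The lists share 1 gene, Slc26a3, with the colonocyte markers.

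**Figure D4:**
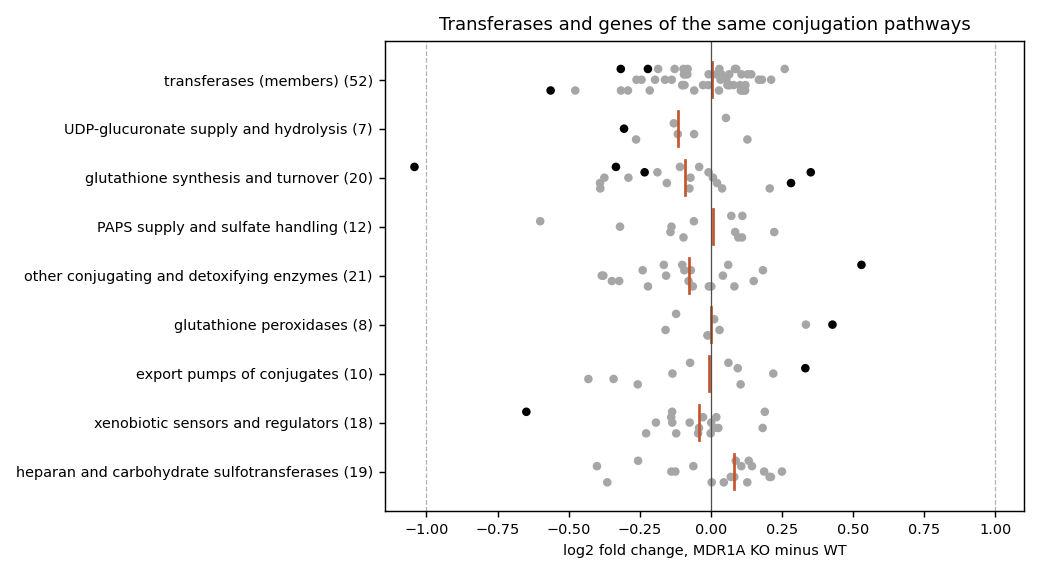
Log2 fold change (MDR1A KO minus WT, horizontal axis) of every measured gene of the 52 transferases and of 8 lists of pathway genes, 1 point per gene, with the number of genes in brackets. Black points have an unadjusted p under 0.05, orange bars mark list medians, which lie between -0.12 and 0.08, and dashed lines mark a 2-fold change, which Slc7a11 passes at -1.04.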

How the data were processed

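Total RNA of 8 tumors was hybridised to GeneChip Mouse Gene 2.0 ST arrays. The deposited values are log2 signals that the authors computed by RMA (background correction, quantile normalization, 1 value per probe set) in Affymetrix Expression Console 1.4, per the labels. The sources used here do not name the arrays' genome build, and RefSeq tables (GRCm38.p6) served for names, gene order and promoters. Probe sets were named from the platform annotation, and the members are probe sets with 1 symbol. limma 3.58.1 in R 4.3.3 (lmFit, eBayes) compared 4 MDR1A KO with 4 WT tumors over 25341 named probe sets, two-sided, with Benjamini-Hochberg adjustment. An exact permutation test over 70 arrangements was added for single genes. No log2 value was filtered in the main analysis. The number of arrays limits the precision. The scripts were tested on simulated data. Promoters were first searched for further motifs as well (a TATA box, AP-1, long and short HNF4 sites, a full HNF1 site and other CDX sites), and the 4 motifs reported were chosen with the matches in view. The replicate number was not used as a block, since the labels state no shared source and not every same-numbered pair of tumors deviated together.

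Members and lists were chosen with earlier results of these data known. Genes given with full statistics are members at an unadjusted p under 0.05 or without overlap, the 2 of smallest p in each subfamily, the 3 with the largest spread within genotype, and up to 4 pathway genes per list at an unadjusted p under 0.05, with any gene outside this rule marked. Alternatives were the methods' t-test, all or only 1-symbol probe sets, dim probe sets left out, each array centred on its median, a repeated quantile normalization, a trended and robust variance model, weights per array, a replicate block, a 1.5-fold threshold, several-symbol probe sets added and each tumor left out. Python 3.11.15, pandas 2.3.3, scipy 1.17.1 and matplotlib 3.10.9 made tables and figures.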

Additional observations from a re-analysis of the deposited data

Results flagged for a closer look

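In 3 of 104 groups of 4 tumors (52 members in each genotype) 1 tumor stood apart from the other 3 by more than Dixon's 95% critical value for 4 samples, while chance flags about 1 in 20 groups. Gstm3 was at 6.64 in MDR1A KO replicate 4, against 5.66 to 5.75 in the other MDR1A KO tumors. Gstm4 was at 6.53 in MDR1A KO replicate 2, against 6.29 to 6.31 in the others. Gstp3 was at 6.60 in WT replicate 4, against 7.01 to 7.05 in the other WT tumors.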

How the results depend on the processing

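Over 858 member values under alternative settings 0 called values reversed, 10 lost and 12 gained an unadjusted p under 0.05, and 0 members reached an adjusted p under 0.05 (lowest 0.356). Members lower at an unadjusted p under 0.05 numbered 3, and 2 to 4 with 1 tumor left out, and members higher numbered 0, and 0 to 2 then, the 2 being without WT replicate 3. Members wholly below WT numbered 2, 1 with dim probe sets left out, and 2 to 5 with 1 tumor left out (5 without MDR1A KO replicate 2), and wholly above 0, and 0 to 2 then (1 without WT replicate 1, 2 without WT replicate 4). The median log2 fold change of the members was 0.0054, -0.087 over the 26 members left without dim probe sets, and -0.051 to 0.028 with 1 tumor left out (lowest without WT replicate 2). Other pathway genes higher numbered 5, 2 with the methods' t-test, and 2 to 11 with 1 tumor left out (2 without MDR1A KO replicate 4, 3 without MDR1A KO replicate 1, WT replicate 2 or WT replicate 4, 11 without WT replicate 3). Those lower numbered 5, 10 with array weights, 3 with the methods' t-test, 8 when quantile-normalized again, and 2 to 7 with 1 tumor left out (2 without MDR1A KO replicate 1 or 3, 3 without MDR1A KO replicate 2). Shares over all named probe sets were computed for the main fit only, so the counts of the other fits have no background beside them. With 1 tumor left out, the genotypes also separate more easily than with 4 tumors against 4. A change in these counts can therefore not be read as particular to the members or the pathway genes. The cause was not tested.

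The replicate numbers share no stated source, and same-numbered deviations correlated at 0.11, 0.02, -0.10 and 0.35. With the replicate block 2 members were lower in place of 3, Ugt2b34 losing its call (adjusted p = 0.776 in limma, unadjusted p above 0.05). Averaging over probe sets or counting every one was not run, since each member has 1 probe set. The dim 33.3% have a log2 mean under 5.06, where little change can be seen.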
